A study of Mus musculus with 2 samples.

Results

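Regulatory T cells (Tregs) of MC38 tumours were described from 74 cells. They are the entries that the deposited cell table names Tregs and that had at least 1000 UMIs of mouse genes (unique molecular identifiers, 1 per captured transcript) in the library. The table holds 99 Treg entries, 75 of them passed the UMI minimum, and 1 with a repeated barcode was left out. All cell types together gave 8767 entries by the same rule, of which 8716 were used. All 74 Tregs carry a single one of the 58 deposited cluster numbers.

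The first group of mice received N297A, labelled as an Fc-null agonist antibody to GITR. GA-aFuc is labelled as an agonist with enhanced Fc, and GITR/Syn GA-aFuc as an antibody with enhanced Fc that is no agonist. Untreated mice, which the labels also call PBS, were the controls. Every mouse, controls included, is labelled as a human FcR mouse, that is, one with human Fc receptor genes. Each carried a subcutaneous tumour grown from 2000000 cells of MC38, a mouse colon carcinoma line. The antibodies, human IgG1 against mouse GITR, were given in 2 injections of 100 µg, 3 days apart, and CD45+ cells were sorted 4 days after treatment. The design names 3 mice per treatment; the library analysed here held 6 mice, told apart by hashtag antibodies. Of these, 2 received N297A, 1 GA-aFuc, 1 GITR/Syn GA-aFuc and 2 were Untreated.

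Tregs are CD4+ T cells whose identity rests on the transcription factor Foxp3. They take up IL-2 through its high-affinity receptor chain, encoded by Il2ra, restrain other lymphocytes through contact receptors such as CTLA-4 and through cytokines such as IL-10 and TGF-beta, and in tumours they carry costimulatory receptors of the TNF receptor family at high density. GITR, the target of the antibodies, is one of these receptors and is encoded by Tnfrsf18. Antibodies with an active Fc part can mark cells that bear their target for removal by cells with Fc receptors.

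The Tregs were unevenly spread over the mice. The N297A mice held 20 and 24 Tregs, the GA-aFuc mouse 3, the GITR/Syn GA-aFuc mouse 3 and the Untreated mice 11 and 13. Sums of mouse UMIs over these Tregs were 137056 and 166435 with N297A, 26658 with GA-aFuc, 22218 with GITR/Syn GA-aFuc, and 55713 and 82896 in Untreated mice. A Treg had a median of 5297.5 UMIs, against 6211 in a CD4 T cell and 8158 in a CD8 T cell. Tests used the 4 mice with at least 10 Tregs, with UMIs summed per mouse and cell type. Levels are CPM, the UMI count of a gene scaled to 1000000 mouse UMIs of such a sum, and the mouse entered each comparison between cell types as a block. How the deposited names were made is not given in the sources used, and they may rest on the expression of these same cells. A small p between cell types therefore tells how steady a difference was over 4 mice and is no independent evidence of identity.

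The label was checked against 4 markers, Foxp3 (ENSMUSG00000039521), Ikzf2 (ENSMUSG00000025997), Il2ra (ENSMUSG00000026770) and Tnfrsf18 (ENSMUSG00000041954). UMIs of all 4 markers were present in 42 of the 74 Tregs, of 3 markers in 25 and of 2 in the other 7. A Foxp3 UMI was found in 62.2% of Tregs (46 of 74), against 4.12% of CD4 T cells (4 of 97) and 1.43% of CD8 T cells (13 of 907). Macrophages, which should lack the gene, gave a background of 0.244% at a median of 15222 UMIs per cell. After thinning every cell to 2000 UMIs, which left out 1 Treg, Foxp3 was found in 42.5% of Tregs, Ikzf2 in 87.7%, Il2ra in 80.8% and Tnfrsf18 in 69.9%. In CD4 T cells these shares were 4.2%, 32.6%, 24.2% and 42.1%, and in 1000 macrophages thinned the same way they were at most 3.0%.

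Foxp3 stood at 401 and 186 CPM in Tregs of the N297A mice and at 323 and 132 CPM in Tregs of the Untreated mice, against 1.88 to 8.17 CPM in CD8 T cells of the same mice. Every Treg sum lay above every CD8 sum (log2 difference 5.50, SE 0.35, adjusted p = 4.87e-12). In CD4 T cells 1 Untreated mouse reached 106 CPM and the lowest mouse had 0, and the difference between Tregs and CD4 T cells did not pass (log2 difference 3.59, SE 1.07, adjusted p = 0.118). It passed without the lymphocytes high in myeloid transcripts that are described further on (adjusted p = 0.00732).

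Ikzf2, which encodes the Treg transcription factor Helios, had 1968 and 2415 CPM in Tregs of the N297A mice and 2997 and 2600 CPM in Tregs of the Untreated mice, against 350 to 532 CPM in CD8 T cells and 174 to 831 CPM in CD4 T cells. Il2ra had 1480 and 935 CPM in Tregs with N297A and 1184 and 746 CPM in Tregs of Untreated mice, against 77.0 to 88.4 CPM in CD8 T cells and 148 to 317 CPM in CD4 T cells. Neither gene's Treg sums overlapped with those of the other T cells. Their log2 differences were 2.42 and 3.58 from CD8 T cells (adjusted p = 4.64e-12 and 3.39e-13) and 2.23 and 2.22 from CD4 T cells (adjusted p = 0.0028 and 0.000171). For Tnfrsf18, the gene of the antibodies' target, the log2 difference was 1.25 from CD4 T cells (SE 0.26, adjusted p = 0.00589).

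**Figure D1:**
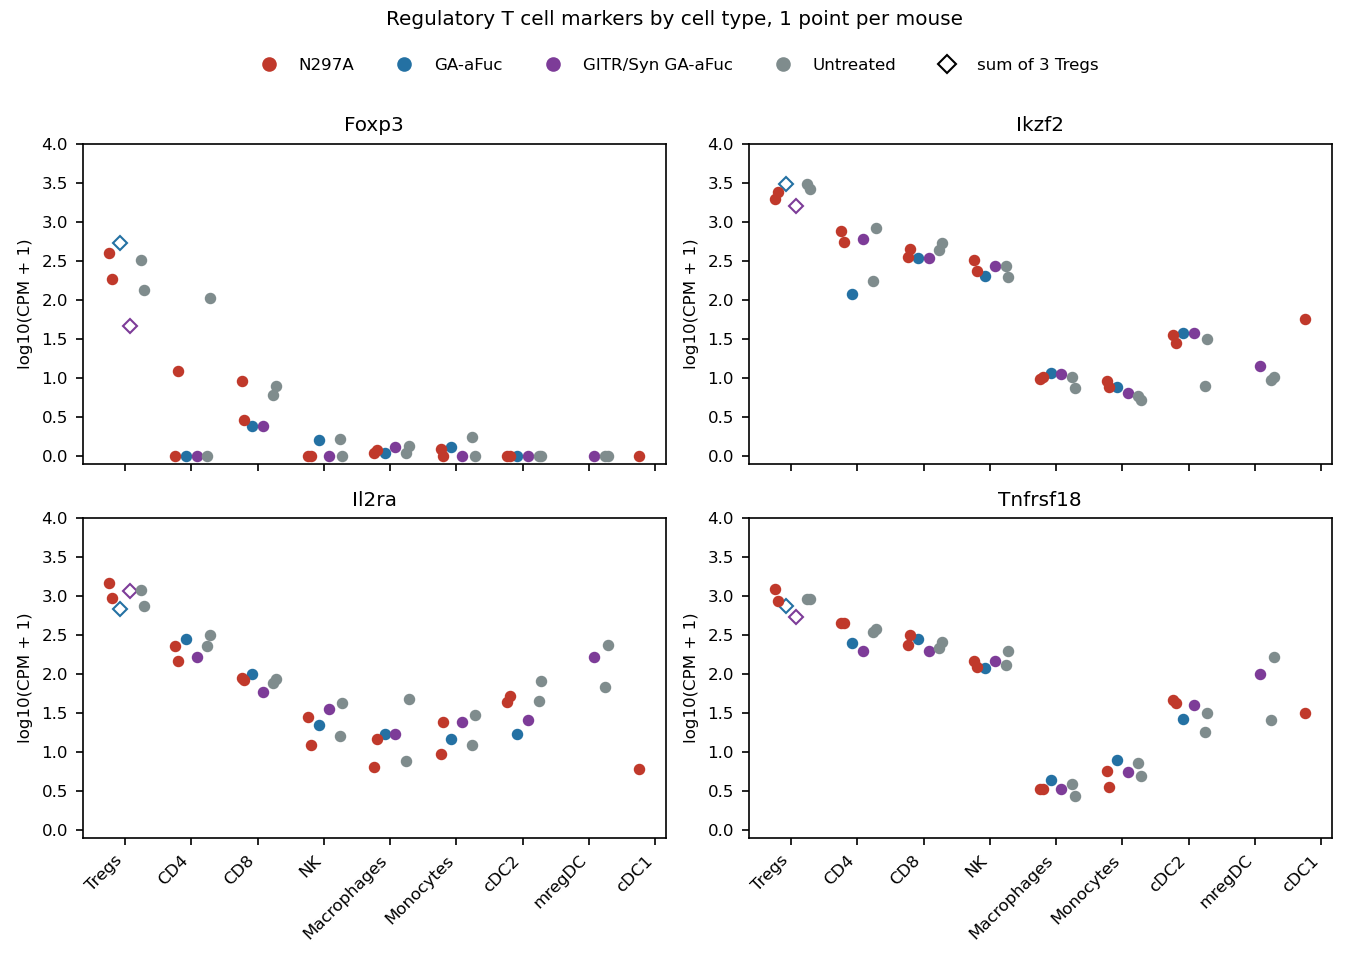
Levels of the 4 Treg markers as log10(CPM + 1) by cell type, with 1 point per mouse for sums of at least 10 cells and open diamonds for the sums of 3 Tregs; colours give the treatment. Tregs held the highest points of each marker, and the Foxp3 point of 106 CPM in CD4 T cells belongs to an Untreated mouse.

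Some Tregs also held transcripts of myeloid cells, and these are set out before the gene results because they touch them. In 7 of 74 Tregs (9.46%), macrophage markers stood at 8659 to 25786 CPM and dendritic cell markers at 7204 to 31750 CPM; in the other 67 the highest values were 6585 and 3097 CPM. These 7 cells had 11411 to 23936 UMIs, against a median of 5144 in the others, and supplied 24.6% of all Treg UMIs. The N297A mice held 1 and 4 of them, the Untreated mice 0 and 2, and neither of the other mice held any. All 7 had UMIs of at least 3 of the 4 Treg markers and 4 had Foxp3. Their top hashtag took 97.4 to 98.9% of the hashtag UMIs and the next one at most 0.828%. The share of such cells was 3.09% among CD4 T cells and 1.32% among CD8 T cells. The dendritic cell signal in Tregs came from 4 genes of antigen presentation, Cd74, H2-Aa, H2-Ab1 and H2-Eb1, while the defining dendritic markers Flt3, Xcr1, Clec9a, Cd209a, Siglech and Fscn1 were at 0 UMIs in all Tregs. Whether these cells are doublets was not tested. Every comparison was repeated without them and without the CD4, CD8 and NK cells that met the same limits, a choice made after the data were seen.

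**Figure D2:**
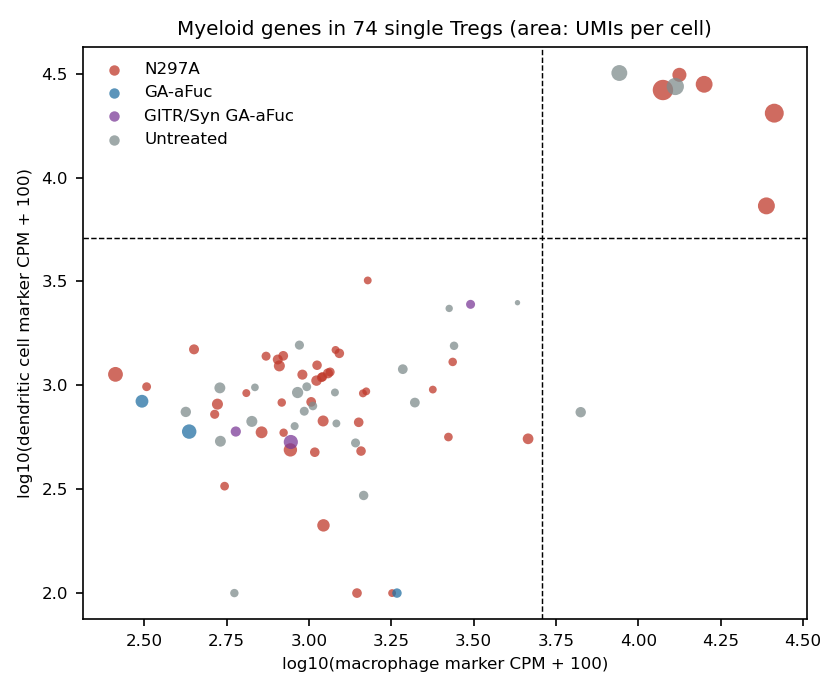
Summed macrophage marker level (horizontal) and dendritic cell marker level (vertical) of each of the 74 Tregs as log10(CPM + 100), with point area proportional to the UMIs of the cell, colour by treatment and dashed lines at 5000 CPM. The 7 myeloid-high Tregs stand apart at the upper right and are 5 cells of N297A and 2 of Untreated mice.

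Compared with CD8 T cells, Tregs were marked by higher transcripts of suppressive mediators and costimulatory receptors and by lower transcripts of the cytotoxic programme. Of 6284 genes tested, 676 were higher (10.8%) and 601 lower (9.56%) in Tregs, 20.3% in all, by edgeR's quasi-likelihood test with Benjamini-Hochberg adjustment, and the median log2 difference over all genes was -0.03. Without the myeloid-high cells 584 were higher (9.9%) and 599 lower (10.2%) of 5901 genes, 20% in all, and 996 calls were shared, all in the same direction.

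Among suppressive mediators, 11 of 20 tested members were higher in Tregs and 3 lower, with a median log2 difference of 1.23. Members rarely counted in CD8 T cells, such as Itgb8, Il10, Lrrc32 and Klrg1, entered this test through their Treg counts. They could hardly come out other than higher. Itgb8, the integrin chain that activates latent TGF-beta, had 160 and 204 CPM in Tregs with N297A and 126 and 181 CPM in Tregs of Untreated mice, against 0 to 3.48 CPM in CD8 T cells (log2 difference 6.66, SE 0.53, adjusted p = 3.36e-10). Il10 had 503 and 348 CPM in Tregs with N297A and 215 and 157 CPM in Tregs of Untreated mice, against 1.92 to 4.63 CPM in CD8 T cells (log2 difference 6.51, SE 0.39, adjusted p = 9.91e-13). Both genes thus had no overlap between Tregs and CD8 T cells. Lrrc32, which encodes the surface anchor of latent TGF-beta, GARP, averaged 112 ± 48.6 CPM in Tregs and 1.24 ± 0.898 CPM in CD8 T cells (SD, n = 4 mice; log2 difference 6.27). Tgfb1 itself was lower in Tregs (log2 difference -0.68, SE 0.22, adjusted p = 0.0286), as were the inhibitory receptor gene Pdcd1 (-2.80, adjusted p = 5.95e-08) and Nrp1 (-1.76, adjusted p = 0.00716), which encodes the Treg surface protein neuropilin-1. The Tgfb1 call was lost with DESeq2 (adjusted p = 0.0999) and without N297A replicate 1 (0.116), N297A replicate 2 (0.0531) or Untreated replicate 1 (0.122). The Nrp1 call was lost without N297A replicate 2 (adjusted p = 0.10).

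Other members of the same group followed. Klrg1, an inhibitory receptor of terminally differentiated lymphocytes, averaged 215 ± 52.2 CPM in Tregs and 5.65 ± 4.14 CPM in CD8 T cells (log2 difference 5.15, SE 0.39). Areg, which encodes the tissue repair factor amphiregulin, averaged 623 ± 178 CPM in Tregs and 59.2 ± 26.7 CPM in CD8 T cells (log2 difference 3.34, SE 0.20). Ctla4, Entpd1, the ectoenzyme CD39, Tigit and Havcr2 were higher by 1.70, 1.35, 2.23 and 1.05 on the log2 scale.

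Costimulatory receptors of Tregs lay above those of CD8 T cells in 6 of 10 tested members and below in 1, with a median log2 difference of 1.05. Tnfrsf4, which encodes OX40, had 1961 and 1294 CPM in Tregs with N297A and 2046 and 1553 CPM in Tregs of Untreated mice, against 126 to 206 CPM in CD8 T cells (log2 difference 3.38, SE 0.19, adjusted p = 4.39e-13). A Tnfrsf4 UMI was present in all 74 Tregs. Icos and Tnfrsf9, the genes of ICOS and 4-1BB, were higher by 1.81 and 1.10, and Cd28 and Cd27 by 0.96 and 0.82; Cd27 did not pass without N297A replicate 2 (adjusted p = 0.0583). Cd226, an activating receptor that competes with TIGIT for ligands, was lower by a log2 difference of -3.15 (adjusted p = 5.99e-05).

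Of 19 tested transcription factors of Treg biology, 9 had higher levels in Tregs than CD8 T cells and 1 a lower level, with a median log2 difference of 0.51. Maf, which drives Il10 in several T cell types, averaged 1304 ± 355 CPM in Tregs and 32.4 ± 11.2 CPM in CD8 T cells (log2 difference 5.27, SE 0.22, adjusted p = 2.54e-15). Prdm1, Runx1, Rora, Ikzf4 and Batf were higher by 1.81, 1.54, 1.34, 1.05 and 0.98. Bach2, a repressor that holds T cells in a resting state, averaged 22.1 ± 26.2 CPM in Tregs and 220 ± 63.0 CPM in CD8 T cells (log2 difference -3.11, adjusted p = 9.72e-06). In the IL-2 pathway Socs2 and Cish, induced by STAT5, were higher by 2.74 and 0.79, and the survival gene Bcl2 was lower (-4.52, SE 0.38, adjusted p = 1.20e-09). Of 15 tested NF-kB genes, which act downstream of TNF family receptors, 6 were higher and 1 lower, with Nfkbia at 1.61, Nfkb1 at 1.25 and Rel at 1.19. Without N297A replicate 1 the calls of Batf (adjusted p = 0.414), Cish (0.195), Ikzf4 (0.0806) and Prdm1 (0.0713) were lost. Batf was also lost without Untreated replicate 1 (0.0666), Cish without Untreated replicate 2 (0.0719), and Ikzf4 without N297A replicate 2 (0.0518) or Untreated replicate 2 (0.450). DESeq2 called none of Batf, Cish and Ikzf4.

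In homing and adhesion, 6 of 12 tested members were higher in Tregs and 2 lower, with a median log2 difference of 0.65. Ccr2, the receptor for monocyte chemokines, had 634 and 390 CPM in Tregs with N297A and 754 and 542 CPM in Tregs of Untreated mice, against 47.0 to 79.9 CPM in CD8 T cells (log2 difference 3.04, adjusted p = 4.64e-12). Itgae, the integrin chain CD103 of epithelial retention, was higher by 4.21. Ccr8, often used to mark tumour Tregs, gave 4 UMIs in 3 of the 74 Tregs (4.05%), against 11.3% of CD4 T cells (11 of 97), 6.39% of CD8 T cells (58 of 907) and 0.0975% of macrophages. Its counts were too low for the tests against CD8 and CD4 T cells. Against all other cells together it passed as higher in Tregs (log2 difference 2.89, SE 1.07, adjusted p = 0.0400), and leaving out any 1 of the 4 mice ended that call (adjusted p = 0.0602 to 0.408). Tcf7, a gene of resting and stem-like T cells, had 0 UMIs in the 74 Tregs. Over the 4 mice this placed it at least 11.4-fold lower in Tregs than in CD4 T cells, against a floor of 3 counts over all 4 mice; the bound covers counting error only.

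The cytotoxic list was lower in Tregs for 14 of 19 tested members and higher for 0, with a median log2 difference of -3.34. Members rarely counted in Tregs entered this test through their CD8 counts and could hardly come out other than lower. Cd8a gave 1 UMI in 1 Treg, against 679 to 718 CPM in CD8 T cells (log2 difference -8.23, SE 0.45). Klrd1, Ctsw, Ifng, Prf1 and Nkg7, genes of NK receptors, killing and interferon gamma, were lower by log2 differences of -5.38, -4.01, -4.00, -3.34 and -1.87. Gzmk had 0 UMIs in Tregs of the 4 mice and was at least 10.0-fold lower than in CD8 T cells, against the floor of 3 counts over the 4 mice. Gzmb, the gene of granzyme B, was not among the genes called. It had 5161 and 3272 CPM in Tregs with N297A and 6603 and 1986 CPM in Tregs of Untreated mice, against 1548 to 3428 CPM in CD8 T cells, so the ranges overlapped (log2 difference 0.63, SE 0.50, adjusted p = 0.525). Against CD4 T cells, at 71.2 to 680 CPM, the log2 difference was 3.43 (SE 0.81, adjusted p = 0.0924), and without the myeloid-high cells it passed (adjusted p = 0.000524). After thinning to 2000 UMIs a Gzmb UMI was found in 86.3% of Tregs, 78.8% of CD8 T cells and 17.9% of CD4 T cells, over a background of 1.5% in macrophages.

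Cell cycle genes were lower in Tregs than in CD8 T cells in 20 of 22 tested members, with a median log2 difference of -2.82. All 26 listed genes together summed to 335 to 575 CPM in Tregs and 2357 to 3032 CPM in CD8 T cells. A member rarely counted in Tregs enters this test through its CD8 counts and can hardly come out other than lower. The count of lower members is therefore no separate support. Among the 74 Tregs, 0 cells had more than 30 cell cycle UMIs per 10000, with an exact 95% interval (Clopper-Pearson) up to 4.86%, against 16.5% of CD8 T cells (150 of 907), 6.92% of NK cells (50 of 723) and 0 of 97 CD4 T cells. Median cells differed little, with 3.77 per 10000 in Tregs, 3.92 in CD4 T cells and 4.75 in CD8 T cells. A deposited CD8 cluster of 139 cells had a median of 80.4 per 10000. Without it, a choice made after the data were seen, 532 genes were higher (9.78%) and 451 lower (8.29%) of 5439, 18.1% in all, and 2 of 6 tested cell cycle members, Mcm3 and Stmn1, were lower in Tregs, with a median of -0.53. That cluster also held 7 of the 13 CD8-named cells with Foxp3. Of these 7 cells, 4 had no Cd8a or Cd8b1 UMI, 4 had a Cd4 UMI, and 6 had at least 2 Foxp3 UMIs. Whether these cells are cycling Tregs was not tested.

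Set against CD8 T cells, Tregs had higher levels of 8 of 26 tested type I interferon response genes and lower levels of 0, with a median log2 difference of 0.55. Oasl2, Oasl1 and Irf7 were higher by 2.09, 1.66 and 0.97. Without the cycling CD8 cluster 3 of 24 members passed, and without the myeloid-high cells 7 of 24, with Irf7 (adjusted p = 0.0833) and Oasl1 (0.0740) no longer called. Without N297A replicate 2 the count was 3 of 26, again without Irf7 (adjusted p = 0.0706) and Oasl1 (0.104), and without Untreated replicate 2 it was 12 of 26. Against all other cells together the same list had 12 of 27 members lower in Tregs, Irf7, Oasl1 and Oasl2 among them, and 2 higher. Its median there was -0.45, beside -0.27 over all genes, and limma-voom gave 5 lower and 1 higher. The interferon-induced GTPase gene Iigp1, outside that list, averaged 1095 ± 239 CPM in Tregs and 74.3 ± 34.0 CPM in CD8 T cells (log2 difference 3.90).

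Markers of other cell types moved with this comparison. Of 9 tested macrophage markers 5 were higher in Tregs, with summed levels of 1938 to 8659 CPM in Tregs and 984 to 1362 CPM in CD8 T cells; without the myeloid-high cells 0 of 6 were higher and the Treg sums were 821 to 1938 CPM. Dendritic cell markers summed to 897 to 11630 CPM in Tregs and 852 to 1182 CPM in CD8 T cells, with 0 of 4 passing. From the B cell and stroma lists Ighm (log2 difference 3.32) and Pecam1 (1.70) were higher in Tregs, each as the 1 member tested, and both passed without the myeloid-high cells (3.60 and 1.93). Pecam1 did not pass without N297A replicate 1 (adjusted p = 0.135). The human receptor genes FCGR2A and FCGR2B passed as higher in Tregs and did not pass without those cells. In the suppressive, costimulatory and transcription factor groups the counts without them were 10 of 19, 8 of 10 and 9 of 19 higher, and the cytotoxic count remained at 14 of 19 lower.

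Against CD4 T cells, of which there were 97, fewer genes could be tested. Without thinning, 49 of these 97 cells held a Cd4 UMI and 20 a Cd8a UMI, against 48 and 1 of the 74 Tregs. Tregs had 79 genes higher (3.94%) and 83 lower (4.14%) of 2004 tested, 8.08% in all, with a median log2 difference of 0.02 over all genes. Without the myeloid-high cells 136 were higher (6.97%) and 122 lower (6.25%) of 1951, 13.2% in all, and without N297A replicate 2 the count fell to 83 in both directions together. DESeq2 called 92. The genes called with and without the myeloid-high cells had 145 in common, all with the same sign. Of 5 tested macrophage markers 1, Lyz2, was higher in Tregs, and without the myeloid-high cells 0 of 4 passed. All 12 markers on that list together summed to 1938 to 8659 CPM in Tregs and 740 to 2900 CPM in CD4 T cells of the 4 mice.

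Suppressive mediators were higher in Tregs than in CD4 T cells for 7 of 13 tested members and lower for 1, Pdcd1 (log2 difference -2.40, SE 0.43, adjusted p = 0.00157). Members rarely counted in CD4 T cells, such as Itgb8 and Areg, entered through their Treg counts and could hardly come out other than higher. The largest difference was that of Itgb8, with 0 to 8.90 CPM in CD4 T cells (log2 difference 5.48, SE 0.69, adjusted p = 7.80e-05). Areg stood at 649 and 431 CPM in Tregs with N297A and at 556 and 855 CPM in Tregs of Untreated mice, against 0 to 71.2 CPM in CD4 T cells (log2 difference 4.39, SE 0.44, adjusted p = 1.94e-05). The Treg and CD4 sums of both genes were fully apart. Il10, Klrg1, Havcr2 and Entpd1 were higher by 3.37, 3.01, 2.42 and 2.21, and Ctla4 by 1.58.

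Receptors that receive costimulation separated Tregs from CD4 T cells as well, in 5 of 7 tested members with 0 lower. Tnfrsf9, Tnfrsf4, Cd27, Tnfrsf18 and Icos were higher by 1.88, 1.62, 1.28, 1.25 and 1.17 on the log2 scale. Without N297A replicate 2 the calls of Cd27 and Icos (adjusted p = 0.114 each) and of Ctla4 (0.0991) were lost, and Cd27 also without Untreated replicate 1 (0.0660) or 2 (0.0516) and with DESeq2 (0.168). Ccr2 and Itgae were higher by 3.34 and 3.20, and Izumo1r, the folate receptor of Tregs, by 3.94. In contrast, 0 of 9 NF-kB genes and 0 of 17 type I interferon genes passed, and Cd4 itself did not pass (log2 difference -0.53, SE 0.36, adjusted p = 0.382). Mt1, Nckap5 and Neb, which are outside these groups, were higher by 2.68, 3.53 and 3.44.

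Genes lower in Tregs than in CD4 T cells included 2 ligands of T cell help. Tnfsf8 and Tnfsf11 were the only members tested of a helper list of 16. Rarely counted in Tregs, both entered this test through their CD4 counts and could hardly come out other than lower. Tnfsf8, the CD30 ligand, averaged 4.82 ± 5.89 CPM in Tregs, against 148 to 507 CPM in CD4 T cells (log2 difference -5.19, SE 0.56, adjusted p = 2.99e-05). Tnfsf11, which encodes RANKL, had 0 UMIs in Tregs of 3 of the 4 mice and 58.3 CPM in the remaining one, an N297A mouse, against 239 to 475 CPM in CD4 T cells (log2 difference -4.37, SE 0.67, adjusted p = 0.00349). Bach2, Klrd1, Emb, Ctsw and Il18r1 were lower by log2 differences of -4.24, -3.45, -3.37, -3.03 and -2.62. Klrd1 and Ctsw do not stand for the cytotoxic list, where 5 of 7 tested members were positive (median 0.69), with 0 called higher and 2 lower. Without the myeloid-high cells 4 of 7 were called higher, Gzmb, Nkg7, Ccl4 and Cst7, and the same 2 lower. Among the lower genes Aff3 and Tbc1d4 had only 2 and 3 UMIs in Tregs of the 4 mice.

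**Figure D3:**
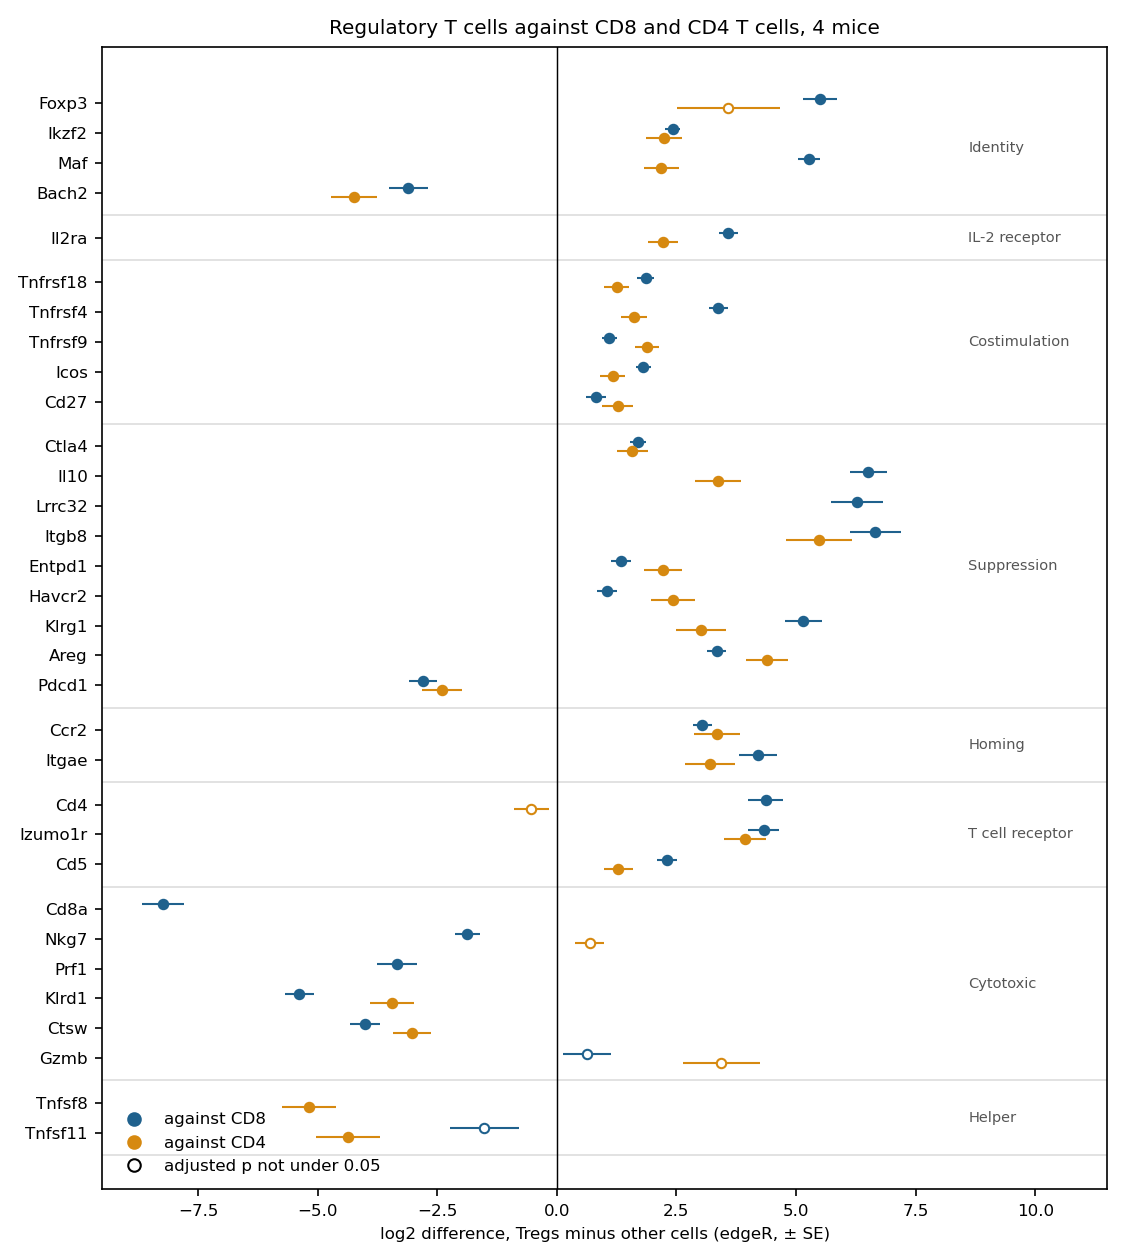
Log2 difference (edgeR, ± SE, 4 mice) of Tregs from CD8 T cells in blue and from CD4 T cells in orange for members of the named groups; open points did not reach an adjusted p under 0.05, and a missing point was not tested. Itgb8, Il10 and Lrrc32 lie farthest to the right, Cd8a farthest to the left, and Gzmb is open in both comparisons.

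To see which genes set Tregs apart from all types at once, separate fits were made against 7 types. These were CD8, CD4 and NK cells, macrophages, monocytes, cDC2 and mregDC, a mature dendritic cell type. The last had 2 qualifying mice, both Untreated, and the others 4. Of 1692 genes tested in all 7 fits, 38 (2.25%) were higher in Tregs in each. By their smallest difference they were led by Itgb8 (5.48, from CD4), Izumo1r (3.94, from CD4), Nckap5 (3.53, from CD4), Neb (3.43, from CD8), Il10 (3.37, from CD4), Areg (3.34, from CD8) and Klrg1 (2.73, from NK). Then came Ikzf2, Il2ra and Maf at 2.23, 2.22 and 2.18, each with CD4 T cells nearest. All of the receptors Tnfrsf4, Tnfrsf9, Tnfrsf18, Icos and Cd27 were among them, at 1.62, 1.10, 1.25, 1.17 and 0.82. Ctla4 was included at 1.58. Genes rarely counted in the other types, such as Itgb8, entered these fits through their Treg counts.

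Further genes among the 38 were picked after their values were seen and stand for no tested group. The interferon-induced genes Ifi27l2a, Igtp, Irgm2 and Iigp1 were included, with smallest differences of 0.99, 1.03, 1.05 and 0.72. The GIMAP genes of lymphocyte survival Gimap3, Gimap6 and Gimap7 were included at 1.22, 0.64 and 1.43. The integrin chain genes Itgae and Itgav were included at 0.82, with cDC2 nearest, and 1.10. Without the myeloid-high cells the count was 61 of 1500 genes (4.07%), with all 38 among them, and Foxp3 was then included with a smallest difference of 3.75. DESeq2 gave 13 genes, and the count without N297A replicate 2 was 19.

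Against all other annotated cells of the same mice together, 889 genes were higher (7.24%) and 1406 lower (11.4%) of 12281 tested, 18.7% in all, with a median log2 difference of -0.27 over all genes; most of the others were macrophages and monocytes. The balance of directions depended on the setting: limma-voom gave 1643 higher and 1191 lower with a median of 0.07, and without the myeloid-high cells the counts were 799 and 2037 with a median of -0.51. Relative to this mixture the Treg levels of Itgb8, Lrrc32, Foxp3, Izumo1r and Tnfrsf4 were higher by 9.09, 8.43, 8.21, 7.53 and 6.44. Lower genes with at least 50 CPM in the other cells included Chil3 (-5.26), Gzma (-4.93) and Xcl1 (-4.01).

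Detection of Klrg1 and some other genes varied among single Tregs, which 1 cluster number covers. The values below describe cells, which are not replicates, and were not tested. Cells were not thinned here, held 1668 to 23936 UMIs and were pooled over mice. In the 4 mice with at least 10 Tregs, Areg was found in 18.2 to 50% of Tregs and Klrg1 in 45.8 to 75%. Whether UMIs per cell or differences between mice gave these shares was not tested. Klrg1 was detected in 70.4% of the Tregs with an Areg UMI and in 46.8% of those without. With an Il10 UMI the share of Tregs holding Klrg1 was 61.5%, and without one 48.6%. With an Itgae UMI it was 48.1%, and without one 59.6%. Ikzf2 was present in 93.5% of Tregs with a Foxp3 UMI and in 89.3% of those without.

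The share of Tregs among T cells was compared to see whether their number followed the treatment. Tregs made up 7.69% (20 of 260) and 16.3% (24 of 147) of T cells in the N297A mice, 1.86% (3 of 161) in the GA-aFuc mouse, 1.69% (3 of 177) in the GITR/Syn GA-aFuc mouse, and 4.87% (11 of 226) and 12.1% (13 of 107) in the Untreated mice. The exact 95% intervals (Clopper-Pearson, counting error only) were 4.76 to 11.6% and 10.7 to 23.3% with N297A, 0.386 to 5.35% with GA-aFuc, 0.351 to 4.87% with GITR/Syn GA-aFuc, and 2.45 to 8.54% and 6.63 to 19.9% in Untreated mice. Both mice given an Fc-enhanced antibody lay below every other mouse. The groups with 1 mouse were not tested, and the interval of each of these mice overlapped with that of the lower Untreated mouse.

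N297A and Untreated mice overlapped, with a mean difference of 3.50 percentage points (two-sided exact permutation p = 0.667, n = 2 and 2, where 0.33 is the smallest possible; 3 comparisons of shares were made). CD8 T cells per Treg numbered 11.1 and 4.54 in the N297A mice, 44.7 in the GA-aFuc mouse, 54.0 in the GITR/Syn GA-aFuc mouse, and 18.1 and 6.31 in the Untreated mice. A separate set of table entries, those with under 1000 mouse UMIs in this library, carries a treatment but no mouse here; its 24 Treg entries had 0 to 10 UMIs in the library. The set gave 9.20% Tregs of T cells with N297A (8 of 87), 1.25% with GA-aFuc (3 of 240), 1.33% with GITR/Syn GA-aFuc (2 of 150) and 7.33% in Untreated (11 of 150). Both Fc-enhanced antibodies had the lowest shares in either set. The N297A share exceeded the Untreated one in either set, but in the library the difference turned to -0.82 points without N297A replicate 2 and to -0.14 points without Untreated replicate 1.

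**Figure D4:**
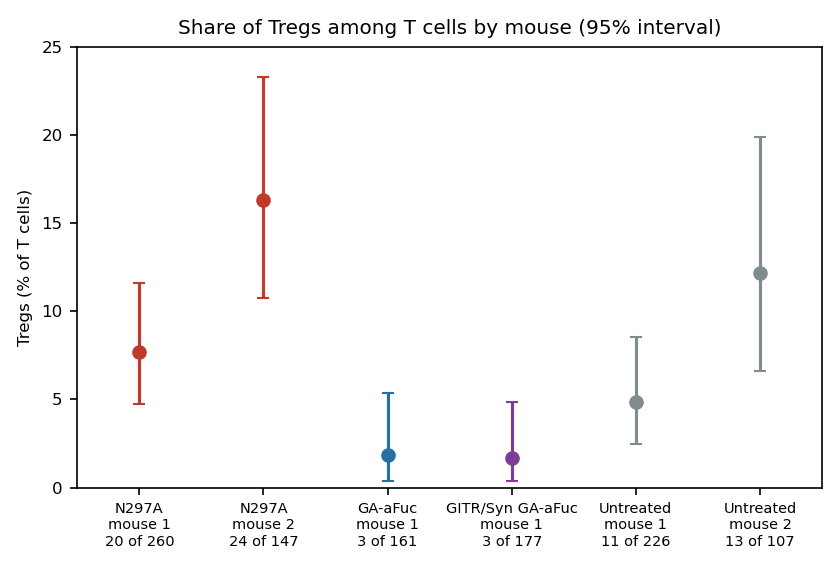
Tregs as a percentage of T cells (Tregs, CD4 and CD8 T cells) in each mouse, with exact 95% intervals that cover counting error only and the cell numbers under each point. Lowest are the mouse of GA-aFuc at 1.86% and that of GITR/Syn GA-aFuc at 1.69%, and the N297A and Untreated mice range over 4.87 to 16.3%.

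The 3 Tregs of the GA-aFuc mouse and the 3 of the GITR/Syn GA-aFuc mouse give levels without replicates. Their Il2ra levels were 675 CPM (exact Poisson 95% interval 400 to 1067) and 1170 CPM (764 to 1714), beside 746 to 1480 CPM in the other mice. Maf was at 263 CPM (106 to 541) with GA-aFuc and 135 CPM (27.8 to 394) with GITR/Syn GA-aFuc, against 891 to 1758 CPM in the N297A and Untreated mice together. Ccr2 had 1 UMI with GA-aFuc and 0 with GITR/Syn GA-aFuc, Itgb8 and Itgae had 0 UMIs in both mice, and Foxp3 was found in 2 of 3 cells with GA-aFuc and 1 of 3 with GITR/Syn GA-aFuc. In the GITR/Syn GA-aFuc mouse 1 cell held all 20 UMIs of Tnfsf8 and all 23 of Tnfsf11, the help ligands that were low in Tregs elsewhere, and in the GA-aFuc mouse 1 cell held all 25 UMIs of Ifng. The intervals cover counting error only, and levels over 3 cells can rest on 1 of them.

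Within Tregs, N297A was set against Untreated to ask what the Fc-null antibody changed in these cells. Of 2288 genes tested, 0 passed (0%) by edgeR's quasi-likelihood test, 0 by DESeq2 and 0 by limma-voom, and 96 (4.20%) had an unadjusted p under 0.05. Among genes with many UMIs, the edgeR fit on simulated counts found 13 of 100 changed 2-fold and 67 of 100 changed 4-fold. The 0 calls therefore do not show that Tregs were unchanged. Leaving out a single mouse gave 2 to 31 calls, the most without Untreated replicate 2, but such fits set 1 mouse against 2.

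The 12 genes with the smallest p, chosen after their values were seen, are given as values. Il10 had 503 and 348 CPM in Tregs with N297A, against 215 and 157 CPM in Tregs of Untreated mice (log2 difference 1.26, SE 0.38, unadjusted p = 0.00968, adjusted p = 0.999). The interferon-induced genes Epsti1, Rsad2 and Bst2 had log2 differences of 1.54, 2.07 and 1.18, and the chemokines Ccl3 and Ccl4 of 2.37 and 1.33. Sntb1 was on the other side, with 131 and 89.9 CPM with N297A against 395 and 433 CPM in Untreated mice (log2 difference -1.86, SE 0.39, unadjusted p = 0.00109). None of these 12 genes passed adjustment.

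By group, 17 of 20 tested type I interferon genes had a positive log2 difference with N297A in Tregs, with a median of 0.63 beside 0.01 over all genes, and 0 passed. Macrophage markers had a median of 0.84 in the same comparison. Without the myeloid-high cells 12 of 15 interferon genes were positive with a median of 0.51, and the macrophage median was -0.48. The 4 markers had log2 differences of 0.46 (Foxp3), -0.30 (Ikzf2), 0.38 (Il2ra) and 0.22 (Tnfrsf18), with SEs of 0.53, 0.23, 0.33 and 0.29. For the costimulatory receptors 1 of 7 was positive, with a median of -0.26, and for the suppressive mediators 9 of 15, with a median of 0.04.

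**Figure D5:**
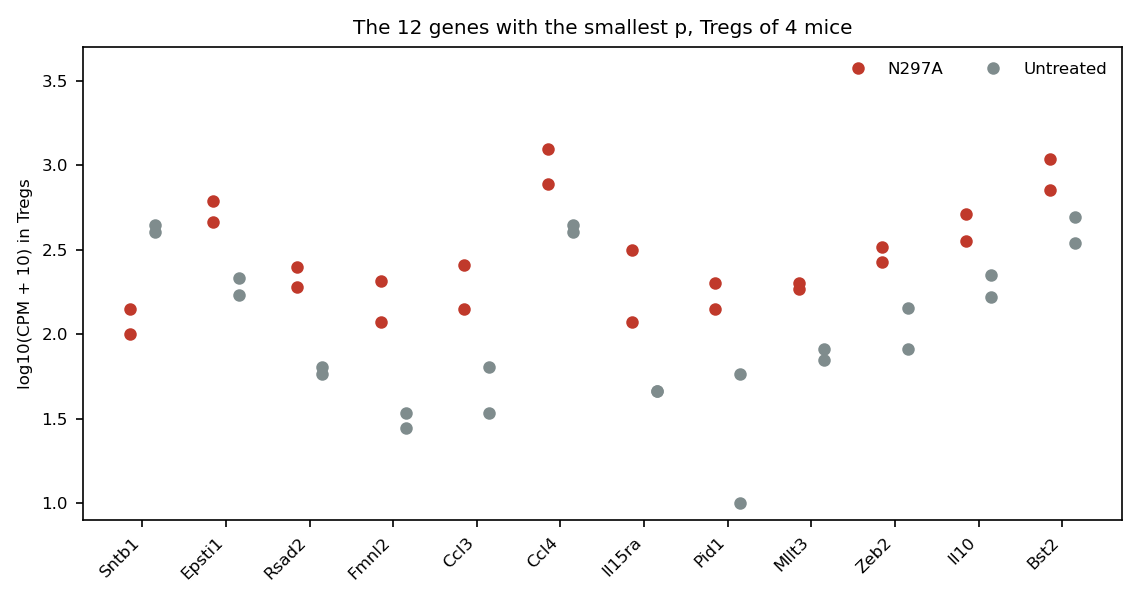
Levels as log10(CPM + 10) in Tregs of the 2 N297A mice (red) and the 2 Untreated mice (grey) for the 12 genes with the smallest unadjusted p, ordered by p from left to right. Sntb1 is lower with N297A and the other 11 genes are higher; none passed adjustment over 2288 genes.

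Whether the N297A difference in Tregs departed from that in CD8 T cells was tested with an interaction term. Of 7429 genes tested, 6 passed (0.0808%), 5 with a more positive difference in Tregs (0.0673%) and 1 with a more negative one (0.0135%), while DESeq2 and limma-voom gave 0. Ccl3 had 248 and 132 CPM in Tregs with N297A and 53.8 and 24.1 CPM in Tregs of Untreated mice. In CD8 T cells it had 120 and 183 CPM with N297A and 184 and 722 CPM in Untreated mice. The directions in the 2 cell types were thus opposite (difference of the log2 differences 4.12, SE 0.72, adjusted p = 0.0190). In CD8 T cells the direction rested mostly on Untreated replicate 2 at 722 CPM, where 1 cell gave 222 of 623 UMIs. The other Untreated mouse, at 184 CPM, was level with the higher N297A mouse, at 183 CPM. Ccl3 was the only one of 6956 genes to pass without the myeloid-high cells (0.0144%, adjusted p = 0.000534). With all cells but without Untreated replicate 2 its adjusted p was 0.341. All 27 tested type I interferon genes had a positive term, with a median of 0.99 beside 0.10 over all genes, but 0 of them passed. Macrophage markers had a median term of 1.12 with 10 of 11 positive, and without the myeloid-high cells the medians were 0.76 for the interferon genes, with 26 of 27 positive, and 0.32 for the macrophage markers.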

How the data were processed

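A single 10x Genomics 3' library of multiplexed CD45+ tumour cells was analysed. The authors deposited raw UMI counts per feature and barcode, without normalization, made with Cell Ranger 9.0.0 per the file headers; feature names carry a GRCh38 or GRCm39 prefix. Their filtering, demultiplexing, clustering and naming of cells are not given in the sources used here. Each hashtag fell almost wholly in 1 treatment (lowest purity 99.8%) and stands for 1 mouse, a reading of the data and not of the labels; replicate numbers follow the hashtags and pair nothing. From the 8767 entries, 33 with a top hashtag of a different treatment and 18 sharing a barcode were dropped. Doublets were not called, and whether the authors removed them is not stated.

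UMI counts were added up over the cells of a mouse and type (at least 10 cells) and tested with edgeR 4.0.16 (R 4.3.3, limma 3.58.1): TMM, filterByExpr, robust quasi-likelihood, Benjamini-Hochberg adjustment over all genes tested, threshold 0.05. Mouse was a block between cell types, since both sums come from the same animal, which leaves 3 residual degrees of freedom, or 1 against mregDC with 2 mice; N297A against Untreated has 2. Alternatives were DESeq2 1.42.0, limma-voom, RLE size factors, no filter, leaving out a mouse, the top 5% of cells or the top cell of each gene, and no block. Sums and shares used Python 3.11.15, numpy 2.4.6, pandas 2.3.3 and scipy 1.17.1. The fits were tested on simulated counts with a fixed spread, with 100 genes changed 2-fold and 100 changed 4-fold. Tregs against CD8 T cells found 9 and 68 of them, with 0 false calls. Tregs against CD4 T cells found 42 and 99, with 3 false calls. N297A against Untreated in Tregs found 13 and 67, with 1 false call. Many 2-fold changes were thus missed. The changed genes were drawn only from genes with many UMIs, so recovery of tested genes with fewer UMIs was not measured.

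Named genes are the 15 with the largest log2 difference in each direction that passed, did not overlap between groups, and had at least 50 CPM in the higher group and UMIs in at least 5 of its cells, leaving out receptor segments, mitochondrial, ribosomal and sex-linked genes; the text prints part of them, beside members of 22 gene lists. Members, lists and tests were chosen with earlier results of these data known. No coordinates are printed because the reference supplied is not of the files' mouse build. Results for some genes are not reported here.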

Additional observations from a re-analysis of the deposited data

Results flagged for a closer look

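The N297A difference was not the same in Tregs as in CD8 T cells for 6 genes, by an interaction term in edgeR's quasi-likelihood test over 2 N297A and 2 Untreated mice. The difference of the log2 differences, Tregs minus CD8 T cells, was 4.20 for Pid1 (adjusted p = 0.0150), 4.12 for Ccl3 (adjusted p = 0.0190), 3.12 for Clec7a (adjusted p = 0.0231), 2.88 for Cxcl9 (adjusted p = 0.0231), 1.77 for Ccl4 (adjusted p = 0.0227) and -3.67 for Ifitm1 (adjusted p = 0.00842).

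Single cells supplied most of the Treg UMIs of several of them. For Clec7a, a myeloid receptor, 39 of 41 UMIs in N297A replicate 1, 21 of 25 in N297A replicate 2 and 16 of 17 in Untreated replicate 2 came from 1 cell each. For Pid1, 1 cell gave all 18 UMIs in N297A replicate 1 and 25 of 32 in N297A replicate 2. For Cxcl9, 1 cell gave 15 of 21 and 22 of 28 UMIs in the N297A mice. For Ccl4 it was 38 of 105 and 154 of 208, and for Ccl3 14 of 34 and 16 of 22. For Ifitm1, 1 cell gave 6 of 7 and 7 of 10 UMIs in the Untreated mice. Without the myeloid-high cells Pid1, Cxcl9 and Clec7a had an adjusted p of 1.00, Ifitm1 of 0.355 and Ccl4 of 0.344, whereas Ccl3 passed (adjusted p = 0.000534, term 3.64). With each mouse left out in turn, the highest adjusted p of the 6 genes lay between 0.179 for Pid1 and 0.361 for Ccl4.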

How the results depend on the processing

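With the mouse as a block, Tregs against CD8 T cells gave 1277 calls, and 1541 with no replicate block; against CD4 T cells the counts were 162 and 237, against all other cells 2295 and 2621, and for genes higher than in every type 38 and 43. Of the 30 genes named by rule in each comparison with CD8 or CD4 T cells, Serpinb9b alone lost its call without the block (adjusted p = 0.158). Leaving out each mouse in turn gave 908 to 1305 calls against CD8 T cells and 1691 to 1938 against all other cells. Against CD4 T cells it gave 83 to 187 calls (lowest without N297A replicate 2). Genes higher than in every type numbered 33 without N297A replicate 1 and 19 without N297A replicate 2. Without Untreated replicate 1 or 2 the fit against mregDC dropped out for lack of mice. The counts of 30 and 40 genes there leave that type out and do not compare with the 38. Of the genes named by rule and still tested, Ddit4 without Untreated replicate 2 (adjusted p = 0.0683) and Gramd3 without N297A replicate 1 (0.0645) or Untreated replicate 2 (0.0627) then lost a call, both against CD4 T cells; 1 of 30 against CD8 T cells was not tested without N297A replicate 2, and 11 of 30 against CD4 T cells were not tested without the top cell of each gene. Most lost calls of list members named in the text are given with their values in the results above. Further ones against CD8 T cells were Tgfb1 with limma-voom (adjusted p = 0.0515), and Batf (0.0551) and Ikzf4 (0.0540) without the cycling CD8 cluster. With no filter on low counts Batf, Cish, Ikzf4 and Cd27 lost their calls there (0.126 to 0.158). Against all other cells, Ccr8 was lost with no filter (0.0901) or no block (0.0744), and Chil3 with no block (0.0579). Of the other counts, those against CD4 T cells moved to 92 with DESeq2, 312 with no filter on low counts and 258 without myeloid-high cells. Genes higher than in every type numbered 13 with DESeq2 and 61 without myeloid-high cells.

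N297A against Untreated in Tregs had 0 calls in every setting with all 4 mice and 2 to 31 with 1 left out. The interaction had 6 calls, 11 with RLE size factors, 10 with no filter, 0 with DESeq2, 0 with limma-voom, 1 without the top 5% of cells, 2 without the top cell of each gene, 1 without myeloid-high cells and 2 to 42 with a mouse left out (the most without Untreated replicate 2); its Cxcl9 term became -0.12 without the top 5% of cells. The N297A minus Untreated share of T cells, 3.50 points, ranged over -0.82 to 7.82 and the log2 CD8 to Treg ratio, -0.59, over -1.35 to 0.17 with a mouse left out, so both directions depend on single mice. Thinning to 1000 UMIs gave Foxp3 in 28.4%, Ikzf2 in 74.3% and Il2ra in 55.4% of Tregs, and thinning to 4000 gave Foxp3 in 57.4% and Tnfrsf18 in 86.9%. The causes of these moves were not tested.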

Other observations

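Cells with Foxp3 transcript were few outside the Tregs. CD8-named cells with a Foxp3 UMI numbered 13 of 907 and had a median of 46.6 cell cycle UMIs per 10000, against 2.75 in the 46 Tregs with Foxp3. In the CD8 clusters other than the cycling one, 6 further cells held Foxp3, each of them with Cd8a or Cd8b1 UMIs. CD4-named cells with Foxp3 numbered 4, none with a Cd4 UMI. NK cells gave 2 of 723, monocytes 5 of 2486 and cDC2 0 of 200.

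Tregs also made up 51.3% (20 of 39) and 63.2% (24 of 38) of all CD4 T cells and Tregs in the N297A mice, 11.1% (3 of 27) in the GA-aFuc mouse, 20.0% (3 of 15) in the GITR/Syn GA-aFuc mouse, and 40.7% (11 of 27) and 52.0% (13 of 25) in the Untreated mice. N297A and Untreated overlapped (difference 10.8 percentage points, two-sided exact permutation p = 0.667, n = 2 and 2). They did not overlap among cells with at least 2000 UMIs (51.3% and 64.9% with N297A, 42.3% and 50% in Untreated) or without the myeloid-high cells (50% and 58.8% with N297A, 42.3% and 47.8% in Untreated), each with the smallest p that this exact permutation test allows, 0.33. The Fc-enhanced antibodies' mice lay lowest here too, and CD4 T cells numbered 24 with GA-aFuc, 12 with GITR/Syn GA-aFuc and 12 to 19 in the other mice.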
